A study of Caenorhabditis elegans with 2 samples.

Results

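ELT-3 ChIP-seq peaks that lie in the introns of autosomal genes, away from gene starts, numbered 400 of the 2940 regions in the submitters' reproducibility-thresholded list, or 400 of the 2916 on nuclear chromosomes. A peak was included when its summit, the single base of highest enrichment, lay inside a protein-coding gene but in no coding sequence or untranslated region. It also had to lie outside a window around every protein-coding gene's 5′ end, reaching 1000 bp before it and 500 bp past it, and more than 100 bp from any tRNA, snRNA or snoRNA gene. No signal value entered this choice beyond membership of the thresholded list. The 400 peaks fell in 271 host genes. The study performed ChIP-seq for ELT-3, described as GFP-tagged, on whole first-stage (L1) *Caenorhabditis elegans* larvae, mixed in sex and of unrecorded age, and deposited 2 libraries, biological replicates 1 and 3. Both came from strain OP75, which carries the unc-119(ed3) III allele and the integrated transgene wgIs75, a tagged copy of elt-3. A C-terminal GFP-FLAG fusion is recorded for the stock of replicate 3, and the antibody field names only elt-3. Whether the tag or the ELT-3 protein itself was the epitope is not stated, so untagged ELT-3 may also have been precipitated. No mutation of elt-3 itself is listed, and no second genotype, stage or untagged strain forms a group, so no groups could be compared. Whole larvae were used, so a peak carries no information on the tissue it came from. The sources listed for the worms of the libraries differ, and a sonication method was recorded for replicate 3 only. Sequencing depth cannot be read from the region lists and is unknown.

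The transcription factor ELT-3 belongs to the GATA family of zinc finger proteins and acts in the larval epidermis, the tissue that builds the cuticle. Proteins of this family bind the core GATA flanked by preferred bases, searched here on either strand as 4 hexamers, of which a pair begin with A (the hexamer AGATAA and its variant AGATAG) and a pair with T (the hexamer TGATAA and its variant TGATAG). Nematode genes are compact, with most known regulatory sequence just upstream of the gene, but long introns also hold enhancers and the promoters of shorter transcripts. A peak deep in an intron lies away from the annotated start of its host gene.

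The following stretches of 30 bases show what the GATA hexamers of intronic summits look like, in chosen peaks: 6 of the strongest with a hexamer, pgph-2 for its replicate 3 rank of 84, 5 with 4 or 5 hexamers, and mup-4 for the epidermal attachment genes described further on. This choice is not complete, and the hexamer peaks of pck-2 and C48E7.1, among others, are not printed. Capitals mark every GATA hexamer on either strand, each sequence is written 5′ to 3′ on the strand named, and coordinates are ce11 (WBcel235, RefSeq sequence). The hexamer in D2023.3 follows a CACGTG, and that of C28H8.2 overlaps one. The hexamers of eppl-1, R05G6.10, hlh-30 and egl-27 overlap or adjoin each other.
D2023.3, chrV:11802610-11802639, plus strand: tccacgtggataTGATAAgaaggacaaagt
eif-2Bdelta, chrV:9516530-9516559, plus strand: aaagcaaagttaTGATAAgaactcaaagaa
pkg-2, chrIV:8527877-8527906, plus strand: ttggtagagaagTGATAGtcacgtgattgg
egl-27, chrII:6842881-6842910, minus strand: atgagttcAGATAGATAAaaagaacatgag
pmt-2, chrV:4630528-4630557, plus strand: tcataaagtgttTGATAAgccgtgaaaggg
C28H8.2, chrIII:5921446-5921475, plus strand: gatcagcacacgTGATAAgaaatactcgtt
pgph-2, chrV:5768418-5768447, plus strand: ttttaaggataaTGATAAaagatcgtgaga
eppl-1, chrIV:8450680-8450709, minus strand: atgaaTGATAAaAGATAAGATAAgaaccac
wdr-62, chrV:9454087-9454116, plus strand: aaaacgattggtAGATAAtgaaaAGATAGa
mltn-9, chrII:14616587-14616616, plus strand: atactgtagttgTGATAAgaaagTGATAGa
hlh-30, chrIV:4032489-4032518, plus strand: ctgcacagagagTGATAATGATAAtctgca
R05G6.10, chrIV:7529373-7529402, plus strand: ttaaatgTGATAAGATAAGATAATGATAAt
mup-4, chrIII:7488504-7488533, plus strand: gaggactggtaaTGATAAtgaaaatgccaa

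The signal is the peak caller's measure of strength, and over the 400 peaks it had a lowest value of 34.2, a median of 54.2 and a highest value of 245.7. By this measure 12 of them stood among the 100 strongest of the whole list. The strongest lay in intron 1 of let-607, which encodes a CREB-family transcription factor, 713 bp inside the gene. Its signal was 245.7 in the thresholded list and 228.2 in the list of replicate 1 (rank 28), and its region ranked 71st in replicate 3, so it was strong in both libraries. It held no GATA hexamer within 50 bp of the summit. The peak in intron 5 of D2023.3 had a signal of 237.3 and held 2 GATA hexamers. Its region ranked 33rd in replicate 1 and 52nd in replicate 3, the best replicate 3 rank of any of the 400.

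The next peaks differed more between the libraries. The peak in intron 2 of epg-9, an autophagy gene, had a signal of 236.1 and ranked 25th in replicate 1. In replicate 3, however, its region ranked only 17693rd of 24854. The peak of pck-2, a phosphoenolpyruvate carboxykinase gene, with a signal of 171.9, ranked 77th in replicate 1 and 23555th in replicate 3. By contrast the peak of pmt-2, whose enzyme makes phosphatidylcholine precursors, had a signal of 162.9, 3 GATA hexamers and ranks of 106 and 87. Among the 15 peaks of highest signal, every one overlapped a replicate 3 region, 9 of them a region among the first 500 of that library, and 7 held a GATA hexamer. The others of these 15 lay in Y111B2A.12 (231.5), the nuclear hormone receptor genes nhr-31 (218.3) and nhr-19 (180.5), eif-2Bdelta (214.5), the cGMP-dependent kinase gene pkg-2 (210.9), the kinase gene mnk-1 (166.3), egl-27 (165.6), C28H8.2 (160.5), the AMPK subunit gene aakg-1 (156.5) and T28F4.1 (155.7).

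GATA hexamers were found within 50 bp of the summit in 187 of the 400 peaks. That is 46.75% (95% exact binomial interval 41.8 to 51.8%), against 34.8% of all 2916 nuclear peaks, and a mean of 20.6% in windows of the same length centred 500 bp to each side. The ratio of summits to flanks was 2.27, and the higher of the 2 p-values from exact McNemar tests against each flank was 7.07e-14. Peaks, not libraries, are the units of this test and of the others below, and they are not replicates of the experiment. Of 230158 windows tiled over the eligible autosomal introns, 17.96% held a hexamer, so the flanks of the peaks lay close to the intron background. At least 2 hexamers were found in 19.25% of the peaks and in 2.28% of the tiled windows. Counted singly, 213 peaks held no hexamer, 110 held 1, 56 held 2, 14 held 3, 5 held 4 and 2 held 5. The 2 with 5 lay in eppl-1 (signal 86.3) and wdr-62 (44.1), and neither overlapped a region of replicate 3.

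**Figure D1:**
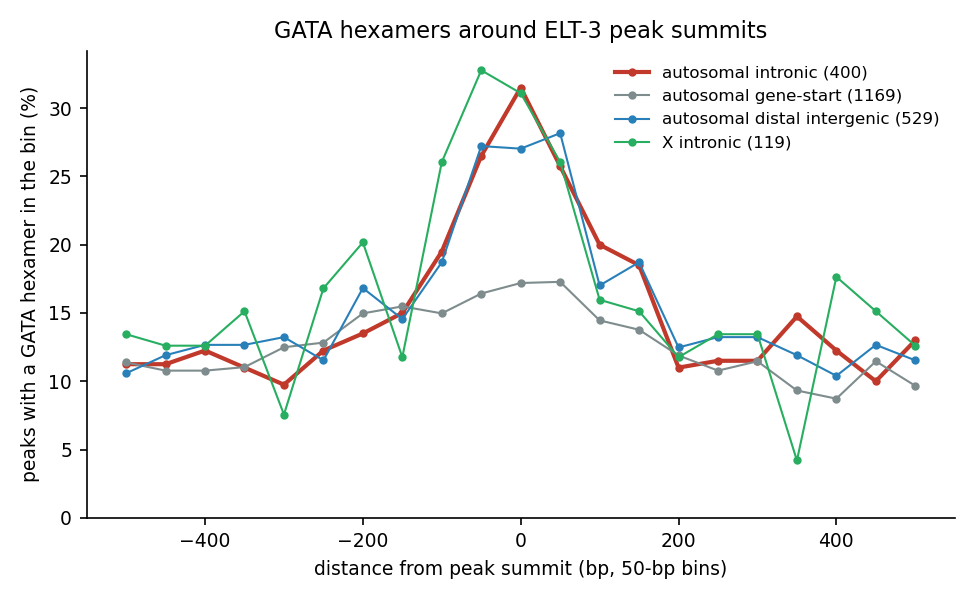
Share of peaks (%) with a GATA hexamer centred in each 50-bp bin, by distance from the summit (bp), for the 400 autosomal intronic peaks and 3 other classes. The intronic curve rises to 31.5% in the bin at the summit, close to the distal intergenic and X intronic curves and above the 17.2% of gene-start peaks.

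The nearest hexamer lay a median of 16.5 bp from the summit, and within 25 bp in 126 of the 187. It was TGATAA in 88 peaks, AGATAA in 37, AGATAG in 36 and TGATAG in 26. Each hexamer on its own was more frequent at summits than in flanks, by 2.87 times for TGATAA (27.25 against 9.5% of windows), 4.29 times for AGATAG, 2.53 times for TGATAG and 1.71 times for AGATAA. The longer form GATAAG was in 20.75% of summit windows and 3.75% of flank windows, a ratio of 5.53. Adjusted over the 9 motifs compared, exact McNemar p was 2.8e-12 for GATAAG and 0.033 for AGATAA, the weakest of these. The nearest hexamer pointed along the host gene in 86 peaks and against it in 101 (46.0% along, 95% interval 38.7 to 53.4%), a split whose interval includes equal shares. Summits were richer in G and C than their flanks, 41.3 against 35.8%, and than the tiled introns, 33%, although the hexamers themselves are rich in A and T.

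The hexamer share was set beside 3 other classes of thresholded peaks by Fisher's exact tests adjusted over those 3 comparisons. Gene-start peaks on the autosomes held a hexamer in 27.5% of 1169, fewer than the intronic peaks (odds ratio 2.31, 95% interval 1.81 to 2.94, adjusted Fisher's exact p = 1.37e-11). Distal intergenic peaks on the autosomes held one in 46.1% of 529 (odds ratio 1.03, 0.78 to 1.34, adjusted Fisher's exact p = 1). Intronic peaks of the X chromosome held one in 46.2% of 119 (odds ratio 1.02, 0.66 to 1.57, adjusted Fisher's exact p = 1). For these last comparisons the intervals bound the difference, and they do not show that the shares are equal.

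These shares depended on the library. When the same rule was applied to the 2940 strongest regions of replicate 1 alone, it gave 404 intronic regions with a hexamer in 46.0%, against 20.7% in flanks (ratio 2.23, exact McNemar p = 1.2e-13). Applied to the 2940 strongest regions of replicate 3 alone, it gave 546 regions with a hexamer in 22.3%, against 20.2% in flanks (ratio 1.10, exact McNemar p = 0.476). Of the 404 regions, 380 overlapped one of the 400 peaks, and of the 546, 92 did. The gene-start contrast also turned in replicate 3, where 25.1% of gene-start regions held a hexamer against 22.3% of intronic regions (odds ratio 0.86, adjusted Fisher's exact p = 0.272). Summits of the 546 regions had a mean GC content of 35.5%, against 41.0% in the 404. Where replicate 3 did have a region over one of the 400 peaks, the thresholded summit held a hexamer in 47.2% of 229 (ratio to flanks 2.37, exact McNemar p = 6.44e-09). At replicate 3's own summits in those regions, counted once each, the share was 36.9% of 225 against 24.2% in flanks (ratio 1.52, exact McNemar p = 0.0134).

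**Figure D2:**
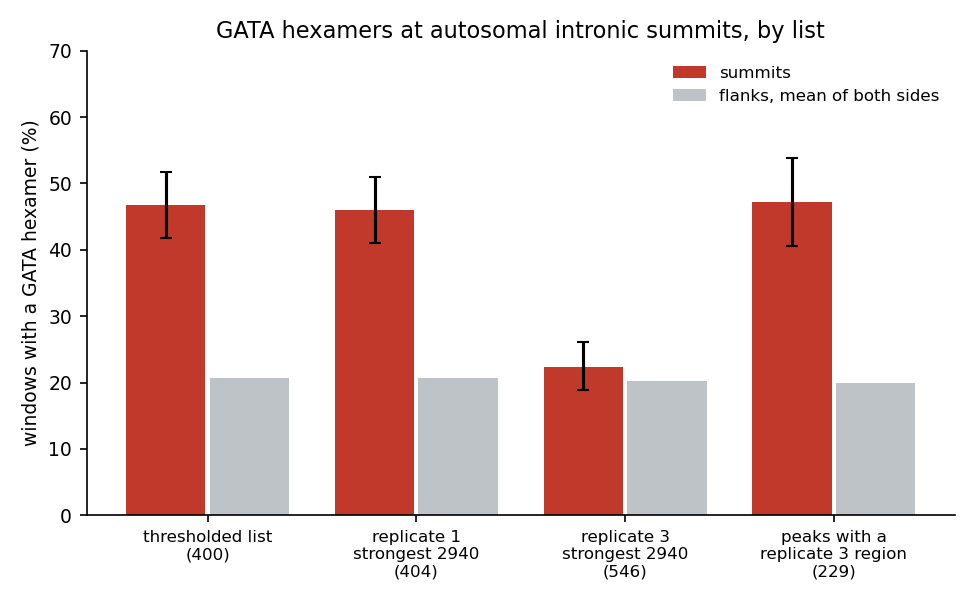
Share of windows (%) with a GATA hexamer at autosomal intronic summits (red, with 95% exact binomial intervals) and in their flanks (grey, mean of both sides), for the thresholded list, the 2940 strongest regions of each library, and the thresholded peaks with a replicate 3 region. Summits stand at 46.75, 46.0 and 47.2% in the thresholded list, replicate 1 and the peaks with a replicate 3 region, and at 22.3% in replicate 3 alone.

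Other short sequences also marked the summits. Of all distinct 6-mers, with strands merged, 180 were more frequent at the 400 summits than in their flanks at an adjusted p under 0.05 by Fisher's exact test, or 8.65% of those tested, and 167 were less frequent, or 8.03%. Unlike the McNemar tests above, these tests took both flanks of a peak as separate windows and did not pair them with their summit. The 6-mer AAAATT was the first by p among those that were less frequent (11.75 against 44.25%), while the windows differ in GC content as given above; the part of that difference in the 6-mer counts was not tested. Among the more frequent, GAGAGA came first (29.75 against 5.75% of windows, adjusted Fisher's exact p = 4.05e-25), and GATAAG was the next (adjusted Fisher's exact p = 2.42e-17). ACGCAG was in 11% of summit windows and 1.13% of flank windows (ratio 9.78, adjusted Fisher's exact p = 4.69e-12), and the palindrome CACGTG in 11.25 and 2.5% (ratio 4.5, adjusted Fisher's exact p = 1.21e-07). CACGTG is the E-box form read by helix-loop-helix factors. In the 213 peaks with no GATA hexamer, 96 6-mers (4.62%) were more frequent than in flanks, with GAGAGA at 31.5 against 6.34% and ACGCAG at 14.6 against 1.41%. With replicate 3's strongest regions alone, 0 6-mers were more frequent at an adjusted Fisher's exact p under 0.05, and 130 had an unadjusted p under 0.05 in either direction. None of the GATA hexamers and none of the 6-mers GAGAGA, then ACGCAG, and lastly CACGTG was found in 28% of the 400 peaks. The matching share of flank or tiled windows was not computed, so this value has no background beside it.

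To show the bases beside the 6-mers, 30 bases follow for 6 strong peaks with ACGCAG and 2 examples with CACGTG, all without a GATA hexamer and with the 6-mer in capitals (ce11, 5′ to 3′ on the strand named).
epg-9, chrIV:2602165-2602194, minus strand: actacggaggagACGCAGacaggcaaagag
Y111B2A.12, chrIII:12612653-12612682, minus strand: aatgacaccgagACGCAGacatcgagtgac
nhr-19, chrII:9603640-9603669, plus strand: ttggtgacacatACGCAGacgactaaagga
mnk-1, chrII:10552038-10552067, minus strand: aaattgaacgcgACGCAGagaaaaaccgaa
Y43F8B.2, chrV:19529393-19529422, minus strand: gggagaccagagACGCAGacatcattgtgg
W06H8.6, chrV:6224626-6224655, plus strand: ctcctaggggagACGCAGgcaaaggccacc
nhr-31, chrIV:8028506-8028535, plus strand: cgcgcatcttgtCACGTGcctcttcactca
D2023.1, chrV:11799395-11799424, plus strand: gtggcgcgcacgCACGTGgcggaagatcat
In 4 of the 6 the letters before ACGCAG extend it to GAGACGCAG, a string picked after these sequences were seen and so given with no test, and in nhr-19 and mnk-1 they do not. The longer string was in 27 of the 44 peaks with ACGCAG, or 6.75% of the 400, in 0.5% of their flank windows and in 0.499% of the tiled intron windows. Gene-start peaks held it in 8.9%, distal intergenic peaks in 11.0% and X intronic peaks in 1.68%, so the 6.75% of the autosomal intronic peaks lay below the values of the other autosomal classes. It was in 9.61% of the intronic peaks with a replicate 3 region and 2.92% of those without. For ACGCAG itself the shares were 14.8 and 5.85%, but no 6-mer differed between these sets after adjustment (0, or 0%, were called by Fisher's exact test, and 93 had an unadjusted p under 0.05).

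Set against the 1169 gene-start peaks, 77 6-mers (3.7%) were more frequent at the intronic summits and 123 (5.91%) were less frequent. AGTGAT was first among the more frequent (17.25 against 6.76%, adjusted Fisher's exact p = 1.08e-06), followed by TGATAA (27.25 against 14.9%, adjusted Fisher's exact p = 1.36e-05). GAGAGA was also more frequent in introns (29.75 against 20.6%, adjusted Fisher's exact p = 0.00618), as was CACGTG (11.25 against 6.07%, adjusted Fisher's exact p = 0.0183). Neither was particular to the intronic peaks. GAGAGA was in 37.4% of autosomal distal intergenic and 23.5% of X intronic peaks, and CACGTG in 8.51 and 10.9%, which was not tested. The 6-mers less frequent than at gene starts were led by GC-rich strings, with GGCGCA in 0.75% of the intronic peaks and 11.8% of the gene-start peaks (adjusted Fisher's exact p = 9.42e-12). The mean GC content was 41.3% in the intronic and 43.6% in the gene-start windows, and its part in these counts was not tested.

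The intronic peaks were not spread evenly over intron sequence. Their density was 17.2 per Mb of eligible autosomal intron (95% exact Poisson interval 15.6 to 18.98, 400 peaks over 23.3 Mb), against 27.5 per Mb (25.2 to 29.9) of autosomal distal intergenic sequence and 25.4 per Mb (21.0 to 30.3) of eligible X intron. All such intervals cover counting error only. Density rose with the length of the intron, from 4.72 per Mb (3.08 to 6.91) in introns under 500 bp to 40.7 per Mb (34.9 to 47.2) in introns of 4000 bp or more, which held 176 of the 400. In between it was 8.62 per Mb in introns of 500 to under 1000 bp, 14.2 in those of 1000 to under 2000 bp and 26.1 in those of 2000 to under 4000 bp. The median peak lay in an intron of 3348 bp and 3758 bp from the 5′ end of its host. The order was the same within unmasked bases, those that the reference does not mark as repeated or of low complexity, at 7.28 per Mb in introns under 500 bp and 56.1 per Mb in those of 4000 bp or more. Masked bases made up 17.9% of the summit windows and 51.8% of the tiled introns.

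First introns held 143 peaks at 35.0 per Mb (29.5 to 41.2) and later introns 257 at 13.5 per Mb (11.9 to 15.2), each base being numbered by the longest transcript over it. This gap was seen in introns of 500 to under 1000 bp, at 26.2 (15.3 to 41.98) against 6.12 per Mb (4.07 to 8.85). It was also seen at 1000 to under 2000 bp, at 28.3 (17.7 to 42.8) against 11.5 per Mb (8.44 to 15.3). At 2000 to under 4000 bp the values were 40.8 (28.3 to 57.0) against 21.0 per Mb (15.6 to 27.7). The gap was absent in introns of 4000 bp or more, at 40.8 (31.6 to 51.8) against 40.7 per Mb (33.4 to 49.1). With each autosome cut into 3 equal stretches, the central stretch held 29.8 peaks per Mb (25.7 to 34.4) and the outer ones 12.6 (11.0 to 14.4). In introns of 500 to under 1000 bp these values were 25.3 (16.4 to 37.4) and 4.72 (2.89 to 7.296). They were 44.7 (31.3 to 61.9) and 8.12 (5.59 to 11.4) at 1000 to under 2000 bp. At 2000 to under 4000 bp they were 56.1 (41.2 to 74.6) and 15.6 (10.96 to 21.4), again with separate intervals. The intervals overlapped under 500 bp, at 7.8 (4.62 to 12.3) and 2.495 (1.08 to 4.92). They also overlapped in introns of 4000 bp or more, at 47.8 (36.4 to 61.6) and 37.9 (31.3 to 45.4). By chromosome the density was 24.4 per Mb on II, 18.9 on IV, 16.2 on III, 14.2 on V and 13.8 on I, from 95, 92, 73, 69 and 71 peaks. A GATA hexamer was found in 48.4, 50, 46.6, 55.1 and 32.4% of them in the same order, and the interval of the last, 21.8 to 44.5%, overlaps that of each of the others taken singly. The 4 other autosomes together stood at 49.8% (164 of 329), above that interval, and this difference was not tested.

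**Figure D3:**
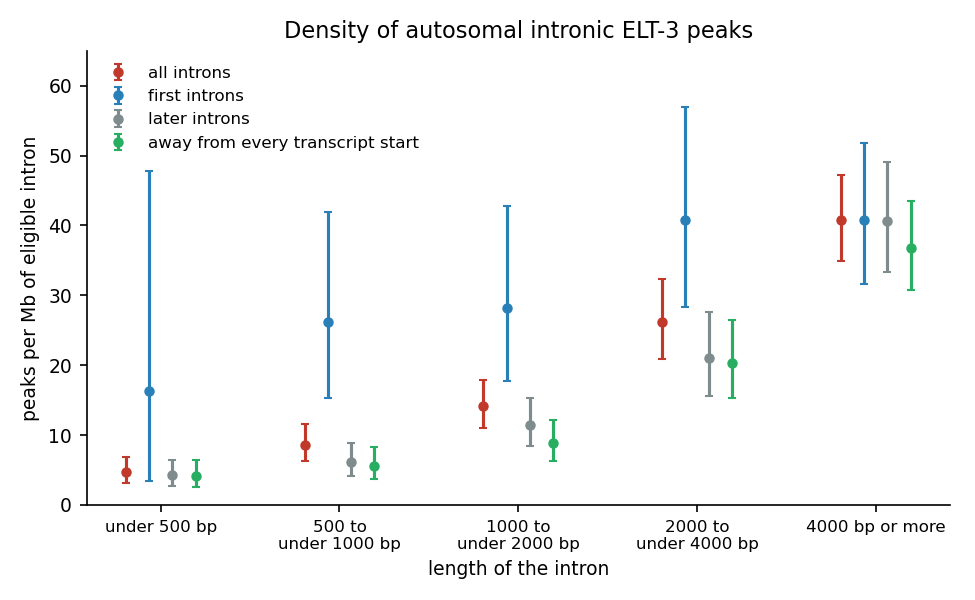
Peaks per Mb of eligible autosomal intron by intron length, for all introns, first introns, later introns and bases away from every annotated transcript start. Points are densities and bars 95% exact Poisson intervals. Density rises from 4.72 to 40.7 per Mb over all introns, and first and later introns meet at 40.8 and 40.7 per Mb in the longest class.

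The rule used gene starts, and genes often have further transcripts that begin inside them. Of the 400 peaks, 129 (32.25%) fell in the same window drawn around another coding transcript's 5′ end, in each case a transcript of the host gene. Of these 129, 118 lay upstream of that 5′ end, and the median position of the 129 summits was -276 bp, where negative values lie before that start. The rule itself favours the upstream side. Its window reaches 1000 bp before a start and 500 bp past it, and summits in coding sequence or untranslated regions were left out. The eligible bases on each side were not counted, so the split shows no preference of the peaks. The density of the 129 was 41.8 per Mb (34.9 to 49.6) of such sequence, against 13.4 per Mb (11.9 to 15.1) away from every coding transcript start. Examples were egl-27 (signal 165.6, at 483 bp), the polybromo gene pbrm-1 (133.3, at -826 bp), ifbp-1 (125.5, at -421 bp), the chromatin gene zfp-1 (111.2, at -639 bp) and jun-1, which encodes an AP-1 factor (107.4, at -992 bp). A GATA hexamer was in 51.2% of the 129 and in 44.6% of the other 271 (odds ratio 1.30, 95% interval 0.83 to 2.02, Fisher's exact p = 0.239). A replicate 3 region was present for 57.4 and 57.2% (odds ratio 1.01, 0.65 to 1.58, Fisher's exact p = 1). Both comparisons were chosen after the split was seen.

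Host genes often held more than 1 peak. Of the 271 hosts, 194 held 1 peak, 47 held 2, 15 held 3, 9 held 4 and 6 held 5 or 6, so 77 hosts held 206 of the 400. Neighbouring summits in a host lay a median of 1589 bp apart, from 199 to 21054 bp. Only 10 peaks overlapped another of the 400. The gene with the most was pkg-2 on chromosome IV, whose product is a cGMP-dependent protein kinase, with 5 summits in its intron 4 of 6824 bp and another in intron 5. Their signals were 210.9, 151.6, 137.1, 107.4, 66.7 and 56.0, all above the median of the 400. Of the 6, 4 held a GATA hexamer, and 5 had a replicate 3 region, with ranks from 2091 to 21013.

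There were 5 peaks in each of pqn-41, egl-4, rpoa-1, D2023.1 and vhp-1. The gene egl-4 encodes another cGMP-dependent kinase, rpoa-1 the large subunit of RNA polymerase I and vhp-1 a phosphatase of MAP kinases. The peaks of pqn-41 all lay in its intron 14, of 10372 bp, with signals of 143.9, 96.9, 84.95, 82.8 and 35.5, and the strongest ranked 59th in replicate 3. The last 2 of these overlapped and shared a region in each library. The D2023.1 peaks (34.5 to 100.6) held no GATA hexamer, and each overlapped a replicate 3 region, which 2 of them shared. All 4 peaks of egl-27, a chromatin regulator related to human MTA proteins, held a hexamer, at signals of 165.6, 44.8, 42.03 and 34.9, while the 4 of mnk-1 (36.6 to 166.3) and the 4 of let-526, a SWI/SNF subunit gene (50.6 to 67.8), held none. The 4 peaks of hlh-30, the worm homologue of TFEB, had signals of 86.9, 66.4, 64.3 and 43.7 and replicate 3 ranks of 105, 238, 3503 and 23032. In these hosts the signals spanned a range. Most of the 30 hosts with 3 or more peaks held peaks of both kinds, such as egl-4 with a hexamer in 3 of 5 and rpoa-1 in 2 of 5. Hosts with a hexamer in all peaks or in none were the minority, and whether they exceed a random spread was not tested.

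**Figure D4:**
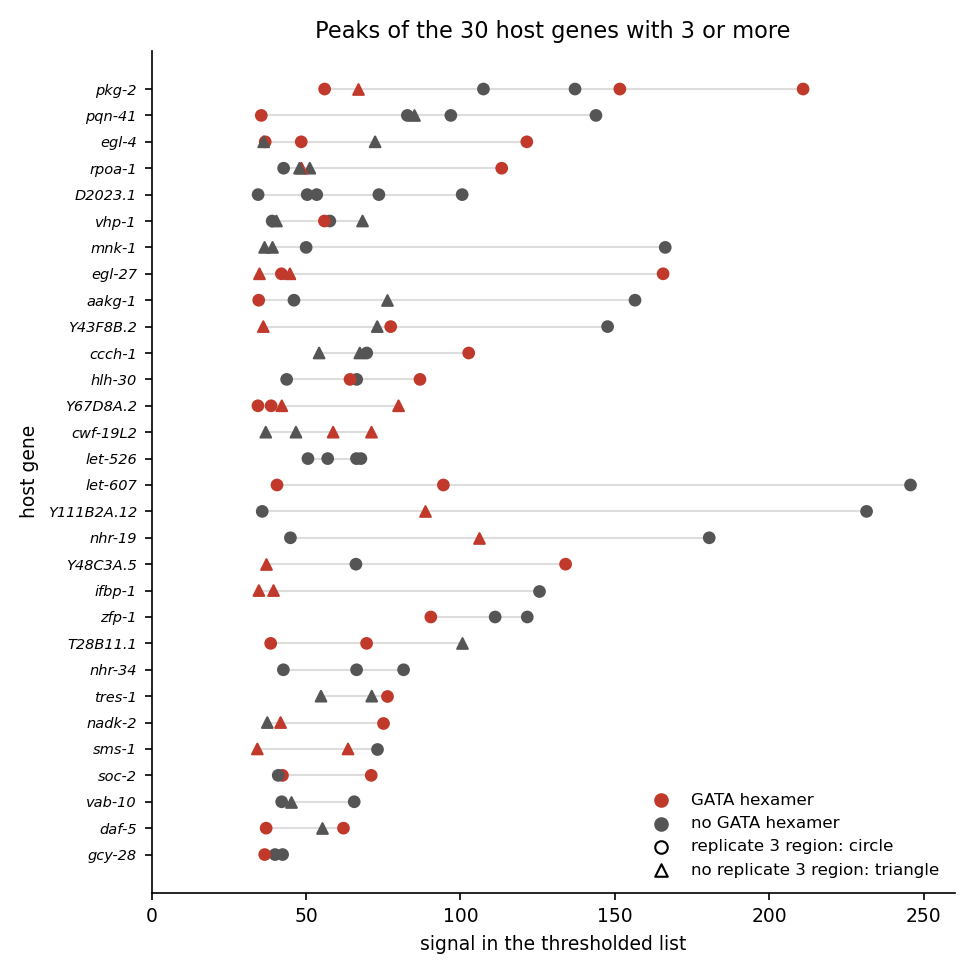
Signal in the thresholded list of each peak in the 30 host genes with 3 or more, 1 row per gene. Red points hold a GATA hexamer within 50 bp and dark points do not, and triangles mark peaks with no replicate 3 region. The 6 peaks of pkg-2 span 56.0 to 210.9.

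Peaks at the hosts' own starts were counted as a description, with no test. A thresholded summit lay in the 5′ window of 67 of the 271 hosts (24.7%, 95% interval 19.7 to 30.3%) and of 8.58% of the 13509 other autosomal coding genes with eligible intron. Hosts had more intron to hold a peak, with a median of 4837 bp of eligible sequence against 628 bp. Among genes with at least 4000 bp, the shares were 13.8% of 152 hosts and 9.34% of 1338 other genes. These held only 21 of the 67 hosts with a start peak, and 125 of the 1159 other genes with one. The gap was therefore wider among genes with less than 4000 bp. What part intron room has in it was not tested.

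By gene list, the hosts were 1.57% of all 17242 autosomal coding genes, or 11.5 hosts per Mb of eligible intron, and each list is given beside those values as a description. Of 19 genes for epidermal junctions and attachments, 6 were hosts (31.6%, 30.5 per Mb). These genes had a median of 4275 bp of eligible intron, against 648 bp over all autosomal coding genes with such intron, so the percentages are not alike in room for peaks. Of all autosomal coding genes with such intron, 1.97% were hosts. Peak density also rose with intron length, as given above, and the lists were not matched for it. Hosts per Mb are therefore not on an equal footing either. The peak of mup-4, a transmembrane protein of epidermal attachments to muscle, had a signal of 93.2, a hexamer printed above and a replicate 3 rank of 1582. The others were vab-10, a spectraplakin gene with 3 peaks of 65.6, 45.3 and 42.1, ifb-1, for an intermediate filament (59.1, rank 357), the p120 catenin gene jac-1 (53.8, 3 GATA hexamers, no replicate 3 region), pat-12 (45.6) and mua-3 (42.02). Of 15 epidermal transcription factors, 2 were hosts (28.5 per Mb). These were nhr-23, a receptor needed for molting (78.3, replicate 3 rank 579, no hexamer), and nhr-85, with peaks of 55.6 and 50.3 that each held 1 hexamer. Of 22 molting and cuticle synthesis genes 1 was a host (15.4 per Mb), dpy-31, a collagen-processing protease gene (50.2).

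The nuclear hormone receptor genes had 8 hosts of 246 (27.7 per Mb), with 3 peaks each in nhr-19 and nhr-34 and 2 in nhr-31. Of 13 insulin pathway genes 2 were hosts (22.9 per Mb), the receptor gene daf-2 (49.5, 2 hexamers) and the FOXO gene daf-16 (53.7, none). Wound and infection signalling had 2 of 13 (19.6 per Mb), tpa-1 (54.1) and tir-1 (51.9). Body wall muscle had 2 of 25 (11.9 per Mb), the dystrophin gene dys-1 (54.2) and the perlecan gene unc-52 (53.2 and 41.997). The heterochronic list had 1 of 19 (9.37 per Mb), lin-28 (45.2), and the hedgehog-related list 1 of 72 (9.52 per Mb), wrt-1 (34.7). The synapse list had 1 of 31 (4.84 per Mb), unc-43 (60.1). The chemoreceptors had 3 of 1262 (4.16 per Mb), srh-2, srt-52 and str-176 (37.6 to 51.7). The body size TGF-beta pathway (0 of 11), axon guidance (0 of 22), intestine (0 of 15), cuticle collagens (0 of 146), homeobox genes (0 of 63) and cytosolic ribosomal proteins (0 of 79) had no host. The room for peaks differed widely, from 0.00185 Mb for the ribosomal list and 0.0343 Mb for the collagens to 0.206 Mb for axon guidance.

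A few further hosts were picked after their values were seen, and stand for no gene group. The oxidative stress factor gene skn-1 held 2 peaks in its intron 1, of 86.8 (replicate 3 rank 85) and 83.1 (no replicate 3 region), neither with a GATA hexamer. Its negative regulator wdr-23 held 2 peaks of 46.2 and 38.7. The gene myrf-1, for a membrane-bound transcription factor of larval development, held 1 peak of 42.5 with 2 hexamers, and the phenylalanine hydroxylase gene pah-1 held peaks of 56.8 and 37.7. The weakest of the 400, at 34.2, lay in gpdh-2, a glycerol-3-phosphate dehydrogenase gene, and held 2 hexamers.

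Support from replicate 3, meaning overlap with a region of its list, was uneven. The lists of the single libraries were deposited as peaks and background together, with 30000 regions for replicate 1 and 24854 for replicate 3. An overlap can therefore be with a background region, and the overlap of randomly placed regions was not computed. Of the 400 peaks, 399 overlapped a region of replicate 1 and 229 (57.25%, 52.2 to 62.2%) a region of replicate 3, against 58.6% of all nuclear peaks, so the share was near the background of the list. It was 57.7% for gene-start, 57.8% for distal intergenic and 60.5% for X intronic peaks, with odds ratios of 0.98 (0.78 to 1.25), 0.98 (0.74 to 1.28) and 0.87 (0.56 to 1.35) and adjusted Fisher's exact p = 0.907 in each comparison. A region among replicate 3's 2940 strongest was present for 98 of the 400 (24.5%). The median rank of the 229 regions in replicate 3 was 4109. Support fell with signal, from 76.25% of the 80 strongest peaks (signals of 79.96 and above) through 63.75, 56.25 and 52.5% of the next 3 sets of 80 to 37.5% of the 80 weakest (34.2 to 40.98). Because replicate 3 also entered the pooled signal, this fall is not independent of it. Over the 229 peaks, Spearman's rho between the signals of the replicates was 0.30. It was 0.33 between the thresholded list and replicate 3, and, over the 399 peaks with a replicate 1 region, 0.94 between the thresholded list and replicate 1. These are descriptions over regions that share libraries and a control file, and both libraries entered the thresholded list.

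**Figure D5:**
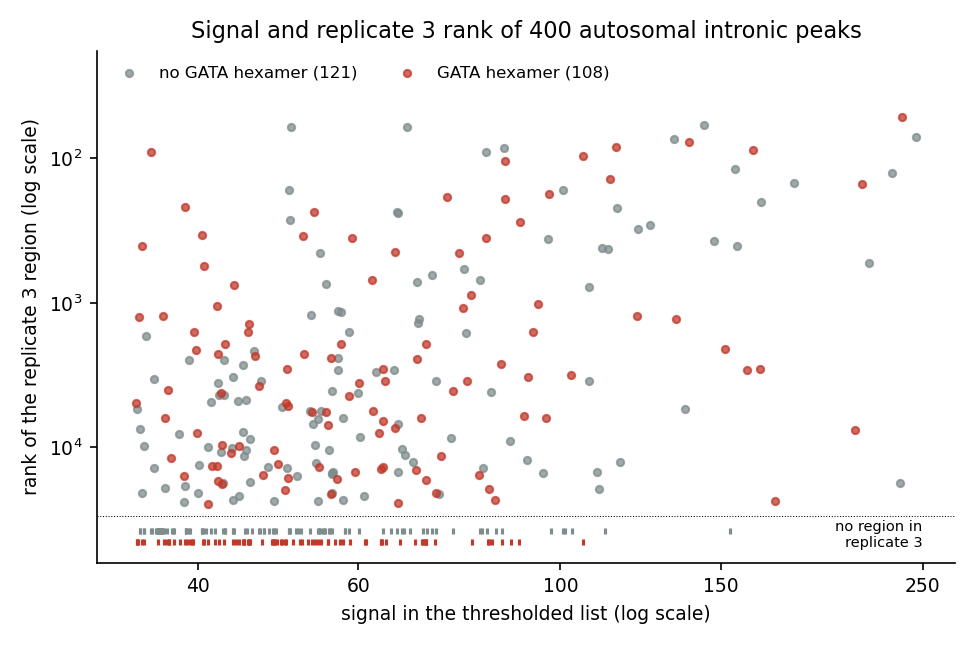
Signal in the thresholded list and rank of the overlapping replicate 3 region, both on log axes, for the 400 autosomal intronic peaks, with the best ranks at the top. Ticks under the dotted line are the 171 peaks with no replicate 3 region. Red and grey points, with and without a GATA hexamer, are spread over the same range.

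Neither the signal nor replicate 3 support differed detectably with the GATA hexamer. Peaks with a hexamer had a median signal of 54.2 and those without 54.1 (difference 0.0026 on the log2 scale, permutation test with 100000 resamples, two-sided p = 0.942). In the same 5 sets of 80 the share with a hexamer was 46.25, 53.75, 43.75, 46.25 and 43.75% from strongest to weakest. A replicate 3 region was present for 57.8% of the 187 with a hexamer and 56.8% of the 213 without (odds ratio 1.04, 95% interval 0.69 to 1.58, Fisher's exact p = 0.919). With hexamers counted within 25 bp of the summit only, this odds ratio was 0.64 (Fisher's exact p = 0.0485), so the direction turned. The windows without a hexamer were richer in G and C, 43.5 against 38.7%, in windows whose hexamers are themselves rich in A and T.

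The sites of the 400 were mostly single in the genome. The summit window matched no other place at 90% identity over at least 80 bases in 399 peaks, and the remaining one had 2 copies. More than 50% of the window was masked in 21 peaks. An annotated gene of another kind lay within 100 bp of the summit in 35, most often a non-coding RNA gene (24). The 5′ boundary of the rule passed between close neighbours. Just inside the set, by position from the nearest gene's 5′ end, were nol-58 at -1003 bp (signal 58.1) and C09H10.5 at 521 bp (36.8). Just outside were ugt-25 at 499 bp (40.4) and ZK822.9 at -987 bp (58.5). Within 50 bp of the boundary there were 5 peaks inside, 3 with a hexamer, and 8 outside, 4 with a hexamer.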

How the data were processed

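Genomic DNA from ELT-3 ChIP was sequenced in 2 libraries of 1 group. Per the manifest deposited with the lists, the authors made region lists for each library and the pool from alignments and a shared control file, then a thresholded list. All of its 2940 regions are the strongest of the 30000 pooled regions. What aligned the reads or called regions is not given in the sources used here. As deposited by the authors, the signal is the caller's strength of a region, and its scale differs between lists. The deposited −log10 column (of the q-value) is constant, 3.86, in the thresholded list and was not used. No column was unmapped. The lists hold no read counts, so depth is unknown. The 24 mitochondrial regions were left out.

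Summits were placed on Ensembl release 115 (WBcel235) with RefSeq sequence of the same assembly. Hexamers and 6-mers were sought within 50 bp of summits and in flanks centred 500 bp away. Overlap meant at least 1 bp. Comparisons used two-sided exact McNemar and Fisher tests, adjusted by Benjamini-Hochberg over every 6-mer, motif or compared class, a permutation test, and exact binomial and Poisson 95% intervals. The hexamer, 6-mer and odds ratio tests were first tested on simulated data. Tools were Python 3.11.15, scipy 1.17.1, statsmodels 0.14.6 and BLAST. Peaks named are the 15 of highest signal, the 10 of best replicate 3 rank, the 10 with most hexamers, hosts of 3 or more, up to 4 per gene list, and those next to the boundaries. The text gives the few that matter from each, plus those it says were named after their values were seen. The members, lists, tests and alternatives were chosen with earlier results of these data known.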

Additional observations from a re-analysis of the deposited data

How the results depend on the processing

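The enrichment of GATA hexamers at the 400 summits kept its direction and stayed past the threshold under 15 of 16 alternatives, 2 of them chosen after seeing the data, which gave ratios to flanks from 1.75 (100 bp to each side) to 5.53 (GATAAG only). The exception was replicate 3 alone, so that leaving out a replicate gave 1.10 to 2.23. The odds ratio against gene-start peaks held under 10 of 11 alternatives and ran from 0.86 to 2.14 with a replicate left out. The cause of this dependence on the library was not tested. The comparisons that were not called changed sides of 1 in places, and only replicate 3 support with and without a hexamer, within 25 bp, passed the threshold when it did (Fisher's exact p = 0.0485). Against distal intergenic peaks the odds ratio was 0.95 within 100 bp, 0.99 for TGATAA or AGATAA, 0.94 with transcript 5′ ends, 0.80 for peaks above the median signal, 0.98 for peaks with a region in both replicates, and 0.78 to 0.97 with a replicate left out. Against X intronic peaks it was 0.81, 0.85, 0.96 and 0.89 within 100 bp, with transcript 5′ ends, above the median signal and with both replicates, and 0.75 to 1.06 with a replicate left out. The odds ratio for a replicate 3 region became 1.08 (gene-start), 1.02 (distal intergenic) and 1.28 (X intronic) above the median signal, and 1.02 (gene-start) for replicate 3's strongest regions. Between peaks with and without a hexamer it became 0.98 above the median signal, 0.98 within 100 bp and 0.64 within 25 bp. The log2 signal difference became -0.022 and -0.010 within 25 and 100 bp. The 6-mers more frequent than in flanks numbered 79 within 25 bp, where shorter windows hold fewer strings, and 0 to 182 with a replicate left out. Those more frequent than at gene starts numbered 22 within 25 bp and 1 to 75 with a replicate left out. Replicate 3 support cannot be computed without replicate 3. No paired analysis was possible because the 2 libraries form 1 group. Depth is unknown.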
